A study of Mus musculus with 10 samples.

Results

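The 10 genes described here encode ADAMTS metalloproteinases and tissue inhibitors of metalloproteinases (TIMPs), and were taken by symbol from 18025 genes measured in mouse gastrocnemius, the large fast muscle of the calf. They comprise 7 protease genes (Adamts1, Adamts4, Adamts5, Adamts8, Adamts9, Adamts15 and Adamts20) and 3 inhibitor genes (Timp1, Timp2 and Timp3), and all 10 were found in both deposited tables. Messenger RNA was sequenced from 5 COPD and 5 control samples of C57BL/6 mice, labelled wild type and 8 weeks old in both groups. COPD stands for chronic obstructive pulmonary disease, which the series title describes as modelled by cigarette smoke, while the labels give no smoke dose, duration, sex or hour of collection, and leave unstated if every sample is a separate animal. The genes were selected on their COPD and control expression values in these same samples, so their differences between the groups are given as a description, without a test.

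ADAMTS proteases are secreted zinc enzymes that are made as inactive precursors, trimmed by furin-like convertases, and held in the matrix by thrombospondin-type domains. The 7 protease genes listed here belong to the branch of the family that cuts the large aggregating proteoglycans versican and aggrecan, and versican is a component of the provisional matrix around muscle precursor cells. TIMPs bind the active site of metalloproteinases. TIMP-3 is the TIMP that is retained in the matrix and inhibits ADAMTS4 and ADAMTS5, while TIMP-1 and TIMP-2 act mainly on matrix metalloproteinases.

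The RefSeq table of start-site regions (GRCm38.p6) held entries for 6 of the genes: Adamts1, Adamts9, Adamts20, Timp1, Timp2 and Timp3. The 250 bases before the start are printed for Adamts9, which differed most clearly between the groups, and for Adamts1 and Timp3, whose profiles over the libraries were the closest to each other. They lie at chr6:92943535-92943784 (minus strand), chr16:85803114-85803363 (minus strand) and chr10:86300162-86300411 (plus strand), in that order. Each is written 5′ to 3′ along the gene, and capitals mark GC-box (GGGCGG) and TATA-box (TATAAA) letters on either strand.
Adamts9: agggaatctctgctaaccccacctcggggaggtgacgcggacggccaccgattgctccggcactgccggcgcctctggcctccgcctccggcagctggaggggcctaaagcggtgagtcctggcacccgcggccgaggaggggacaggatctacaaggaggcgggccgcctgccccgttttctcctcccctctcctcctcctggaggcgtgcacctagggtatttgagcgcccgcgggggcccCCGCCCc
Adamts1: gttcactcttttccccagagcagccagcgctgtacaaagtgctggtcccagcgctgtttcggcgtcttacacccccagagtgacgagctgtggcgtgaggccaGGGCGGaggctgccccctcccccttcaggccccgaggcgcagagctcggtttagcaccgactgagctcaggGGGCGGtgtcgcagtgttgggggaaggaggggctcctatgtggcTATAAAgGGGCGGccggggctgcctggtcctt
Timp3: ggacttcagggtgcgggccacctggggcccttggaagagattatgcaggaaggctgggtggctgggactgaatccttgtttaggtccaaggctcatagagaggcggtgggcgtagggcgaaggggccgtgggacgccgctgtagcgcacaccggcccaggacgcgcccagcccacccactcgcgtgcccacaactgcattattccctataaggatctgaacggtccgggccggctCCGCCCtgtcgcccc

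The Adamts1 region held 3 GC-boxes and a TATA-box that began 32 bases before the start, whereas the Adamts9 and Timp3 regions each held 1 GC-box on the opposite strand. A GC-box was found in all 6 of the regions, and in 32.7% of the 32851 regions in the table. GC content was 71.2% for Adamts9, 65.6% for Adamts1 and 65.6% for Timp3. Letters for AP-1 (TGANTCA, in 6.75% of all regions), the cyclic AMP element (TGACGTCA, 1.55%), the glucocorticoid element (0.387%), the E-box (CACGTG, 6.02%) and the D-box (TTANNTAA, 5.43%) were absent from all 6 of these windows, on both strands. These are matches of letters and not bound sites.

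Library totals ran from 14085854 to 17251034 expected counts, and 12697 genes passed the filter on low counts. The fast-fibre markers summed to 142803 to 178681 TPM (a level scaled to transcript length and to the library) in COPD and 128377 to 171060 TPM in control, while the cardiac markers summed to 0.990 to 3.62 TPM in COPD and 1.09 to 5.96 TPM in control. Summed over Ddx3y, Kdm5d and Eif2s3y, Y-linked counts were 1118 and 1258 in COPD replicates 2 and 3 and 2.87 to 3.81 counts in COPD replicates 1, 4 and 5, against 1441 to 1973 counts in the controls. COPD replicate 5 stood apart as well: with it, edgeR's quasi-likelihood test called 8 genes over all genes tested (adjusted p under 0.05), and without it 410. Values that rest on these libraries are given with and without them. As bulk samples, fewer cells of a type and less RNA per cell cannot be told apart in them.

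The inhibitor genes Timp3 and Timp2 were the most abundant of the 10. Per transcript length, Timp3 averaged 52.6 ± 14.1 TPM in COPD and 61.5 ± 12.3 TPM in control, and Timp2 averaged 38.4 ± 3.68 TPM in COPD and 39.0 ± 5.45 TPM in control (SD, n = 5 each, as for all group means below). Adamts1 was the leading protease gene, at 7.87 ± 3.36 TPM in COPD and 9.89 ± 2.45 TPM in control. Between Timp2 and Adamts1 the ranges did not overlap in either group. Below Adamts1 the order in COPD was Adamts9, Adamts8, Adamts20, Timp1, Adamts5, Adamts15 and Adamts4, and each overlapped its neighbour in range. In control the order was Adamts20, Adamts8, Adamts5, Adamts9, Timp1, Adamts15 and Adamts4, with gaps in range between Adamts1 and Adamts20 and between Adamts15 and Adamts4. Thus 6 of the 10 genes held the same place in both groups, and Adamts9 stood in the fourth place in COPD and the seventh in control. Timp3 exceeded 90.9% of all genes in mean TPM over the 10 libraries, and Adamts4 exceeded 28.7%.

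**Figure D1:**
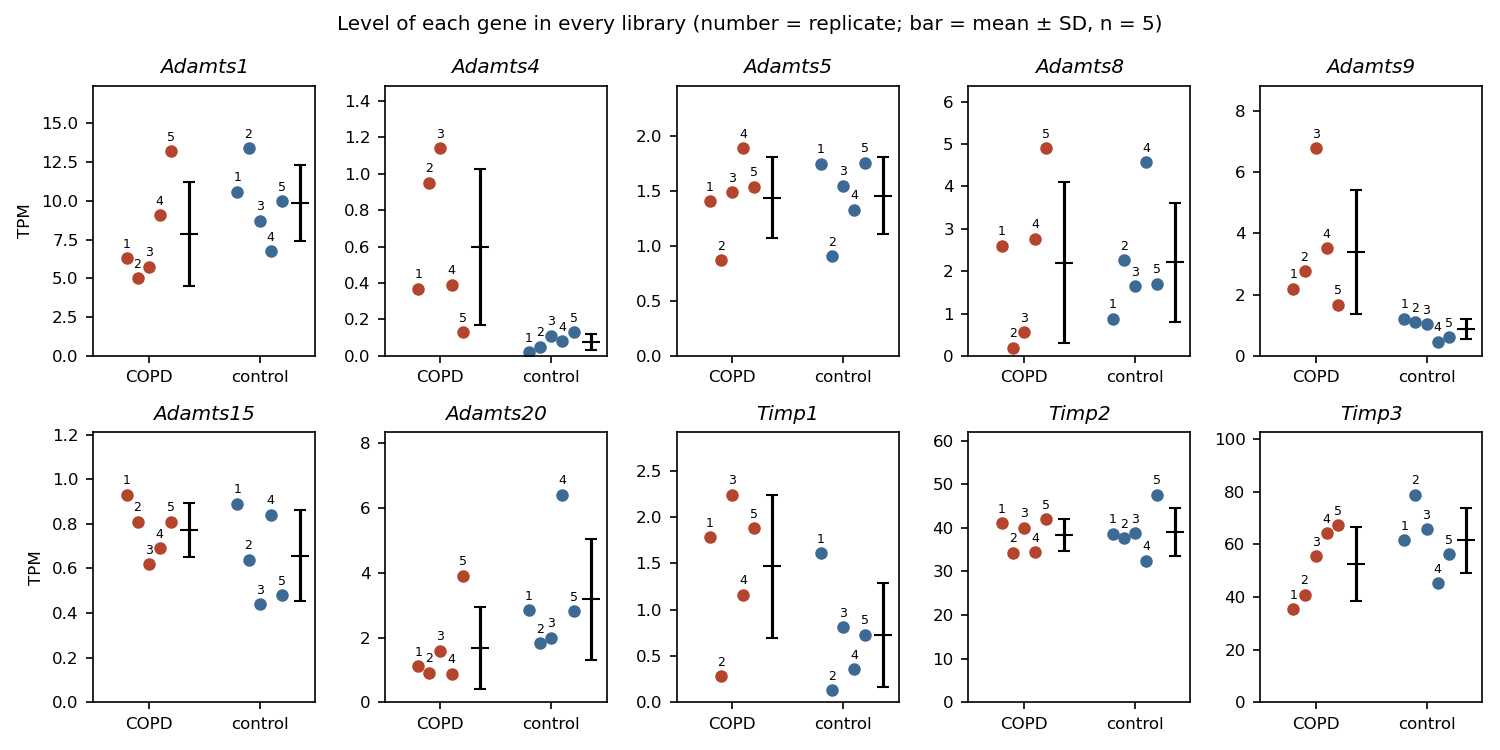
Level of each of the 10 genes in TPM (vertical axis, from 0) in every library, with COPD left of control; points are libraries numbered by replicate and bars are mean ± SD (n = 5). Adamts9 is above every control in all 5 COPD libraries, whereas the groups overlap for the other genes, Adamts4 by a tie at 0.13 TPM.

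Adamts9, a widely conserved secreted protease that is the closest relative of Adamts20, was the gene whose groups separated. It was at 2.2, 2.77, 6.78, 3.51 and 1.67 TPM in COPD replicates 1 to 5, against 1.22, 1.10, 1.04, 0.46 and 0.62 TPM in control replicates 1 to 5. Every COPD library was above the highest control, with COPD replicate 3 the highest and COPD replicate 5 the nearest to the controls. The mean was 3.39 ± 2.02 TPM in COPD and 0.888 ± 0.329 TPM in control, 3.81 times as high in COPD. The fitted log2 fold change on counts scaled by TMM was 2.12 ± 0.38 (SE). The counts behind it ran from 136 to 478 in COPD and from 37 to 97 in control. Without COPD replicate 5 the COPD mean was 3.82 ± 2.05 TPM (n = 4). Adamts9 averaged 4.78 TPM in the COPD libraries with Y-linked counts (n = 2). In those without them it averaged 2.46 ± 0.947 TPM (n = 3). Every control had Y-linked counts, so the COPD libraries without them had no controls of their own kind to be set against. The tenocyte markers, of which 5 of 6 reached 1 TPM and none was at 0 in every library, had a sum of 34.0 to 61.4 TPM in COPD and 28.3 to 37.4 TPM in control; the ranges overlapped and 0 of the 5 tested were called by edgeR. Thbs4 made up most of the sum in COPD, at 21.6 to 39 TPM in COPD and 10.5 to 20.3 TPM in control, whereas the tendon transcription factor gene Scx was at 7.34 to 13.2 TPM in COPD and 9.29 to 17.3 TPM in control. Of the 5 tested tenocyte markers, 4 had a log2 fold change above 0. Tnmd was at 0.92 to 6.55 TPM in COPD and 0.33 to 1.73 TPM in control. COPD replicate 1 had the highest tenocyte sum and COPD replicate 3 the highest Adamts9, and the part of tendon cells in the difference was not tested.

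Adamts4, an aggrecanase that is induced by inflammatory cytokines in cartilage, had the largest fold change of the 10 genes. It also had the lowest mean TPM of them in both groups. In mean CPM, Adamts4 was above Timp1 in COPD (2.49 against 0.790) and below it in control (0.284 against 0.338). Its expected counts were 22.3, 55.7, 62.7, 22.8 and 8.09 in COPD replicates 1 to 5, against 1.3, 2.66, 6.57, 5.27 and 8.06 in control replicates 1 to 5. These correspond to 0.37, 0.95, 1.14, 0.39 and 0.13 TPM in COPD and 0.02, 0.05, 0.11, 0.08 and 0.13 TPM in control. COPD replicates 1 to 4 were above every control, and COPD replicate 5 equalled the highest control in TPM and lay just above it in CPM, at 0.490 CPM in COPD replicate 5 against 0.465 CPM in the highest control. Because it reached the count minimum in too few libraries, Adamts4 did not pass the low-count filter; fitted without that filter, its log2 fold change was 3.09 ± 0.60, and 3.36 ± 0.49 without COPD replicate 5. The COPD libraries with Y-linked counts had the highest levels, with a mean of 1.05 TPM (n = 2), against 0.297 ± 0.145 TPM in the COPD libraries without them (n = 3). The sources used here do not say whether counting used strand, so the count of Adamts4 is uncertain to the degree that reads from the other strand of its exons were included.

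Adamts1, which cuts versican and also restrains blood vessel growth, and Timp3 had the closest profiles of any pair among the 10 genes. Adamts1 was at 6.31, 5.00, 5.75, 9.08 and 13.2 TPM in COPD replicates 1 to 5, against 10.6, 13.4, 8.73, 6.75 and 9.96 TPM in control replicates 1 to 5. Timp3 was at 35.3, 40.8, 55.4, 64.3 and 67.1 TPM in the same COPD libraries, against 61.6, 78.8, 65.8, 45.3 and 56.3 TPM in the controls. In TPM, Adamts1 was below every control in COPD replicates 1 to 3 and Timp3 in COPD replicates 1 and 2. On CPM this held for Adamts1 in COPD replicates 2 and 3 only, and for Timp3 in COPD replicate 1 only. Within the controls replicate 2 was the highest and replicate 4 the lowest for both genes. The groups overlapped, at fitted log2 fold changes of -0.14 ± 0.24 for Adamts1 and -0.04 ± 0.18 for Timp3. For Adamts1 the fold change was -0.39 ± 0.19 without COPD replicate 5 and -0.66 ± 0.25 with a term for Y-linked counts, both fitted without the low-count filter. Of the 45 pairs among the 10 genes, Adamts1 and Timp3 had the smallest root mean square difference between their log2 profiles, 0.26, after each was centred on its group means. Adamts1 and its chromosomal neighbour Adamts5 differed by 0.48 on the same measure. The root mean square of each centred profile alone was 0.39 for Adamts1 and 0.29 for Timp3. Genes with little scatter give small differences on this measure, so the smallest of the 45 is a description only.

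Endothelial markers, all 9 of which reached 1 TPM, summed to 215, 187, 206, 322 and 290 TPM in COPD replicates 1 to 5, against 266, 337, 325, 300.4 and 220 TPM in control replicates 1 to 5. Within the controls their order differed from that of Adamts1, since control replicate 3 had the second highest endothelial sum and the second lowest Adamts1. The smooth muscle and pericyte markers, all 8 of which reached 1 TPM, summed to 249, 234, 262, 299.8 and 313 TPM in COPD replicates 1 to 5, against 273 to 353 TPM in the controls. Both sums were below every control in COPD replicates 1 to 3, the libraries in which Adamts1 was too, and the macrophage sum was below every control in COPD replicates 1 to 4. The part of vessel cells in the levels of Adamts1 and Timp3 was not tested. Exons of Timp3 overlap those of Syn3 on the opposite strand, but Syn3 was at 0.136 ± 0.0416 TPM in COPD and 0.192 ± 0.0716 TPM in control.

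**Figure D2:**
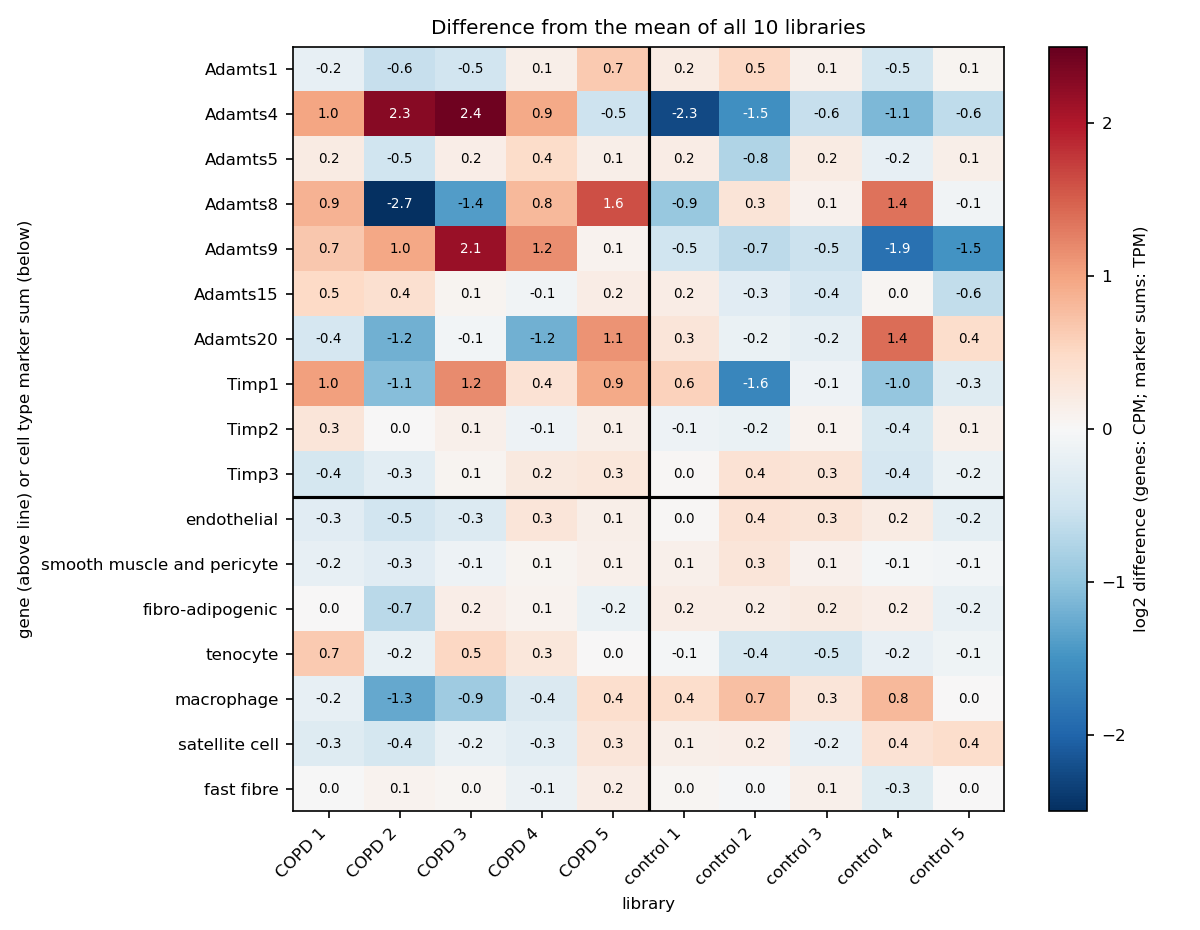
Difference of each library (columns, COPD left of control) from the mean of all 10 libraries on the log2 scale, for the 10 genes (CPM, above the line) and for summed cell type markers (TPM, below it); red is higher and blue lower. Adamts9 is above the mean in all 5 COPD libraries and below it in all 5 controls, while Adamts1 and the endothelial markers are both lowered in COPD replicates 1 to 3.

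Adamts8 and Adamts20 showed the widest scatter within groups after Adamts4 and Timp1 are set aside for their low counts. Adamts8, a protease that, like Adamts1, restrains vessel growth, was at 2.60, 0.19, 0.56, 2.77 and 4.90 TPM in COPD replicates 1 to 5, against 0.88, 2.26, 1.65, 4.57 and 1.70 TPM in control replicates 1 to 5. Within COPD the highest library was 25.8 times the lowest, and the groups overlapped over almost their whole range. The fitted log2 fold change was 0.19 ± 0.63, but it was -0.31 ± 0.60 without COPD replicate 5 and -2.36 ± 0.61 with a term for Y-linked counts (the last 2 without the low-count filter). Its level averaged 0.375 TPM in the COPD libraries with Y-linked counts (n = 2), below every control, and 3.42 ± 1.28 TPM in those without them (n = 3). Macrophage markers, all 9 of which reached 1 TPM, were also lowest in COPD replicates 2 and 3, at sums of 43.3 and 56.8 TPM, against 82.3 to 141 TPM in the other COPD libraries and 106 to 185 TPM in the controls. The part of macrophages in the level of Adamts8 was not tested.

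Adamts20, known in mice for the belted pigment pattern of its mutants, was at 1.11, 0.91, 1.60, 0.88 and 3.90 TPM in COPD replicates 1 to 5, against 2.84, 1.82, 2.00, 6.40 and 2.82 TPM in control replicates 1 to 5. In TPM, COPD replicates 1 to 4 were below every control, while COPD replicate 5 was above 4 of the 5 controls. On CPM, COPD replicate 3 was not below every control, at 7.79 CPM against 6.98 CPM in control replicate 3. The log2 fold change was -0.56 ± 0.45 over all libraries and -1.14 ± 0.37 without COPD replicate 5. Control replicate 4 and COPD replicate 5 held the highest level of Adamts20 in their groups, and they were also the highest of their groups for Adamts8.

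Adamts5 and Adamts15, which have been linked to versican processing during myoblast fusion in mouse cells, were close between the groups in TPM. Adamts5 ran from 0.87 to 1.89 TPM in COPD and from 0.91 to 1.76 TPM in control, a log2 fold change of 0.17 ± 0.21. Adamts15 ran from 0.62 to 0.93 TPM in COPD and from 0.44 to 0.89 TPM in control (log2 fold change 0.43 ± 0.21). On the TPM scale the log2 fold change of Adamts5 was below 0. In TPM the ranges of each gene overlapped over most of their width. On CPM, 2 COPD libraries lay above every control for each gene. There Adamts15 ran from 2.10 to 3.25 CPM in COPD and from 1.44 to 2.60 CPM in control. Adamts15 rested on 25 to 46 counts per library.

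Timp2, which both inhibits matrix metalloproteinases and takes part in the activation of MMP-2, was the steadiest of the 10 genes. It ran from 34.3 to 41.9 TPM in COPD and from 32.4 to 47.6 TPM in control, with coefficients of variation of 9.59% in COPD and 14.0% in control. Its log2 fold change was 0.18 ± 0.12 on TMM-scaled counts and -0.02 on the TPM scale. Timp1, the most inducible TIMP in injured tissue, was barely counted: 14, 2, 16, 9 and 16 expected counts in COPD replicates 1 to 5, against 13, 1, 6, 3 and 6 in control replicates 1 to 5. In TPM these were 1.78, 0.28, 2.24, 1.16 and 1.88 in COPD and 1.61, 0.13, 0.81, 0.36 and 0.73 in control. COPD replicates 1, 3 and 5 were above every control, COPD replicate 2 was at the second lowest level of the 10 libraries, and the gene did not pass the low-count filter. Without that filter its log2 fold change was 1.2 ± 0.57. This value rests on 1 to 16 counts per library, so depth limits it.

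Across the 10 genes, 7 had a log2 fold change above 0 and 3 (Adamts1, Adamts20 and Timp3) below 0 when fitted without the low-count filter, with a median of 0.18, beside a median of -0.02 for all 17925 genes with a count; on the TPM scale, where the median of all genes is lower, Adamts5, Adamts8 and Timp2 had values below 0 as well. Of the 8 genes that passed the filter, edgeR called 0 over all genes tested and had 1, Adamts9, at an unadjusted p under 0.05. The same fit called 0.063% of all tested genes (0.0551% as higher), and 14.6% of them had an unadjusted p under 0.05. DESeq2 called 2 of the 10, Adamts4 and Adamts9, both higher, where it called 3.01% of all genes (1.91% as higher). Without the low-count filter edgeR called 1 of the 10, Adamts9, beside 0.0948% of all genes (0.0781% as higher). Without COPD replicate 5, edgeR called Adamts4 and Adamts9 as higher, where it called 3.21% of all genes (2.06% as higher). Adamts4 passed the filter there only through its COPD libraries, so its call carries no weight. With no low-count filter either, edgeR called Adamts4 and Adamts9, and 2.02% of all genes (1.29% as higher). With the term for Y-linked counts edgeR called Adamts9 alone, beside 1.7% of all genes (1.3% as higher), and with no filter Adamts4 and Adamts9, beside 1.69% (1.17% as higher). On CPM (counts scaled to library size and TMM factor) the groups did not overlap for 2 of the 10 genes, Adamts4 and Adamts9, both higher, beside 2.32% of all genes with a count (1.07% higher in COPD). Among genes that passed the filter, of which Adamts9 is 1, the background was 2.84% (1.29% higher in COPD). The genes were chosen with this contrast known, so these counts describe them and carry no further weight.

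**Figure D3:**
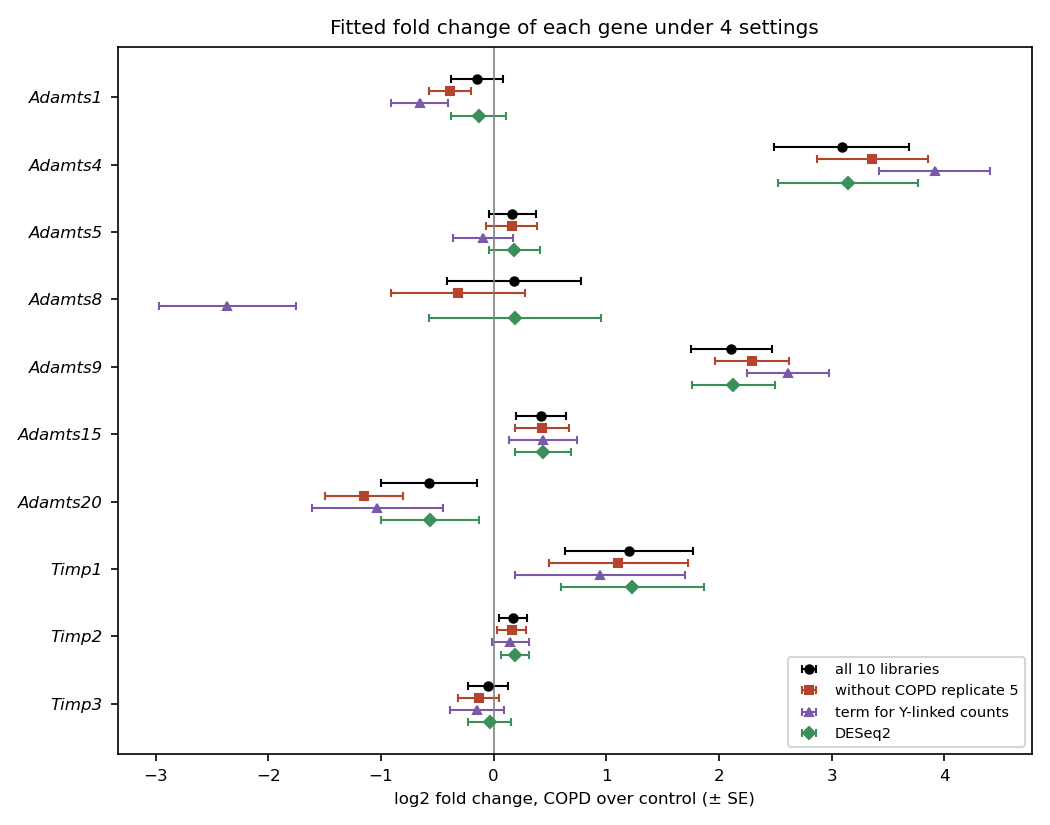
Fitted log2 fold change of COPD over control (horizontal axis, ± SE) for each of the 10 genes, without a low-count filter, by edgeR over all 10 libraries (black circles), without COPD replicate 5 (red squares) and with a term for Y-linked counts (purple triangles), and by DESeq2 over all 10 libraries (green diamonds). Adamts4 and Adamts9 stay above 2 on the log2 scale in all 4 settings, whereas Adamts8 moves to -2.36 with the Y-linked term. Values with that term rest on COPD replicates 2 and 3 against the controls.

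The summed level of the 7 protease genes was 17.9 ± 5.47 TPM in COPD and 18.4 ± 2.03 TPM in control. Without COPD replicate 5 the COPD sum was 15.9 ± 3.44 TPM (n = 4). Adamts1 made up 43.1 ± 6.98% of it in COPD and 54.2 ± 12.5% in control, with ranges that overlapped, and Adamts9 20.3 ± 11.7% in COPD and 4.93 ± 1.98% in control. The share of Adamts9 was 14.7, 24.1, 37.8, 18.3 and 6.39% in COPD replicates 1 to 5, against 6.70, 5.45, 6.70, 2.25 and 3.55% in control replicates 1 to 5. COPD replicate 5 fell within the range of the controls in this share, although its level of Adamts9 did not, because it had the largest sum of all libraries at 26.15 TPM. The summed level of the 3 inhibitor genes was 92.4 ± 15.2 TPM in COPD and 101 ± 14.1 TPM in control, and the ranges overlapped; without COPD replicate 5 it was 87.8 ± 12.8 TPM in COPD (n = 4).

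**Figure D4:**
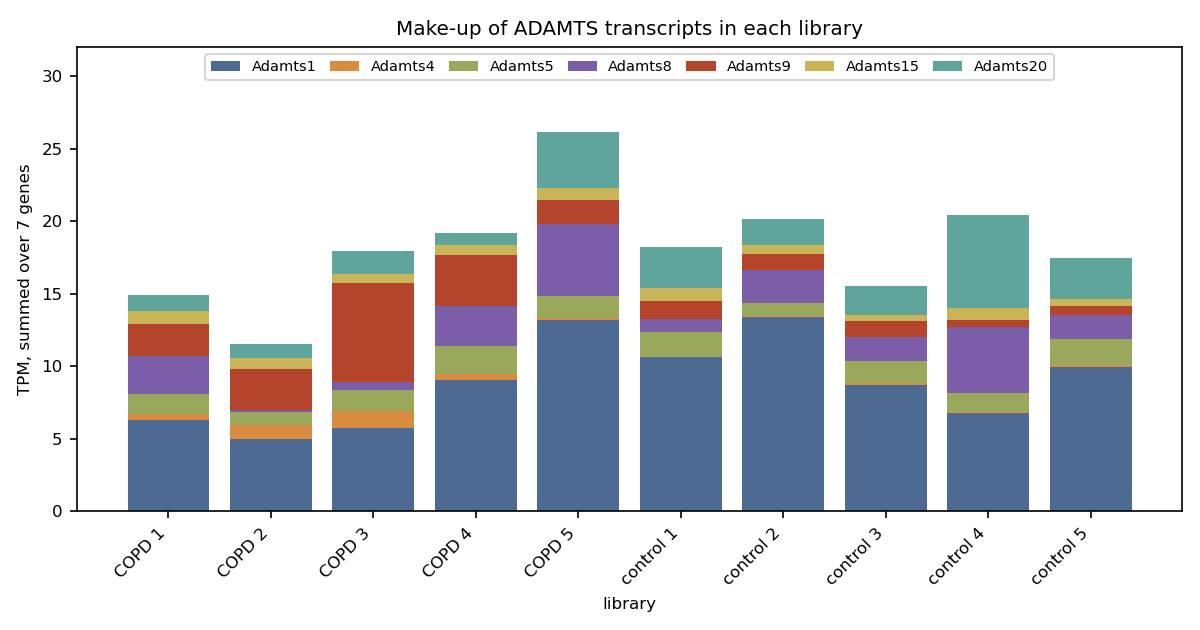
Stacked levels of the 7 ADAMTS genes in TPM (vertical axis, from 0) in each library, COPD left of control. Adamts9 (red) takes 14.7 to 37.8% of the column in COPD replicates 1 to 4 and 2.25 to 6.70% in the controls, and Adamts20 and Adamts8 are thickest in COPD replicate 5 and control replicate 4.

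For Adamts9, Adamts4 and Timp1 the genes with the most similar scatter within groups were listed among 9028 genes with a mean of at least 5 CPM, by the same root mean square difference on the log2 scale over the 10 libraries. Nearest to Adamts9, whose own scatter was 0.62, were Piezo1 (a mechanically gated ion channel) at 0.34, Sfxn5 (a mitochondrial transporter) at 0.37, Malt1 (a paracaspase of NF-kappaB signalling) at 0.37 and Gpr157 (an orphan receptor) at 0.37. Nearest to Adamts4, with a scatter of 0.88, were Srcin1 at 0.30, the muscle ubiquitin ligase gene Trim63 at 0.43, the mitotic kinase gene Aurka at 0.44 and Cited4 at 0.46. Among the nearest to Timp1, with a scatter of 0.79, were Col22a1, a collagen of the muscle-tendon junction, at 0.33, Tigd4 at 0.38 and Pi16, a fibroblast gene, at 0.46. The median difference over the 9028 genes was 0.65 for Adamts9, 0.89 for Adamts4 and 0.82 for Timp1. Low counts of Adamts4 and Timp1 add counting error to these values, which are descriptions without a test.

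Among related genes outside the 10, none passed edgeR's threshold over all genes tested. Of 83 genes in 5 lists, 57 were tested, 0 were called and 12 had an unadjusted p under 0.05, 10 of them higher and 2 lower. That is 21.1% of the 57, beside 14.6% of all genes. DESeq2 called 3 (Sdc4 and Adamtsl2 higher, Has3 lower), where it called 3.01% of all genes. Without COPD replicate 5 edgeR called Sdc4 and Adamts14 higher and Mmp11 lower, where it called 3.21% of all genes. Fold changes below are edgeR's over all 10 libraries, with Benjamini-Hochberg adjusted p.

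Of 13 tested ADAMTS and ADAMTS-like genes, 0 were called, 6 had log2 fold changes above 0 and 7 below, with a median of -0.05. The smallest p belonged to Adamtsl2, a microfibril-binding protein without protease activity, at 3.59 ± 1.98 TPM in COPD and 1.31 ± 1.09 TPM in control (log2 fold change 1.69 ± 0.51, adjusted p = 0.167). Papln (1.22 ± 0.45, adjusted p = 0.248) and the procollagen-processing protease gene Adamts14 (1.02 ± 0.41, adjusted p = 0.274) came next. Of 11 tested genes of proteoglycans and hyaluronan, 0 were called and the median was 0.13. Has3, a hyaluronan synthase, was at 0.29 to 0.58 TPM in COPD and 0.96 to 1.46 TPM in control. Its log2 fold change was -0.95 ± 0.22 (adjusted p = 0.0973). Its groups did not overlap in TPM, and the share of all genes without overlap was not counted on that scale. Nor did those of Dcn (named here for that reason), at 136 to 225 TPM in COPD and 235 to 294 TPM in control. The log2 fold change of Dcn was -0.18 ± 0.14 (adjusted p = 0.585). Hspg2, which encodes perlecan, was at 0.33 ± 0.14 (adjusted p = 0.317), and Fmod, which encodes fibromodulin, at 1.08 ± 0.52 (adjusted p = 0.362). Versican itself (Vcan, named here as the shared substrate) was at 0.680 ± 0.216 TPM in COPD and 0.550 ± 0.234 TPM in control (log2 fold change 0.38 ± 0.34, adjusted p = 0.657).

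Of 10 tested matrix metalloproteinases, 0 were called, with a median of 0.24. The smallest p belonged to Mmp23 (log2 fold change 0.86 ± 0.27, adjusted p = 0.184), Mmp24 (0.39 ± 0.18, adjusted p = 0.338) and Mmp28 (-0.77 ± 0.40, adjusted p = 0.393). Mmp11, named because of its value without COPD replicate 5, was at 1.82 ± 1.27 TPM in COPD and 3.06 ± 0.308 TPM in control, with a log2 fold change of -0.59 ± 0.34 (adjusted p = 0.458), and of -1.09 ± 0.23 (adjusted p = 0.0307) without that library. Among 9 tested ADAM proteases, which are membrane-anchored relatives, 0 were called at a median of 0.04, and Adam15 (0.33 ± 0.13, adjusted p = 0.270), Adam19 (-0.39 ± 0.20, adjusted p = 0.402) and Adam9 (0.11 ± 0.13, adjusted p = 0.736) had the smallest p.

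In the list of inhibitors, activators and clearance factors, 0 of 14 tested genes were called and the median was -0.04. Sdc4, which encodes syndecan-4, a cell-surface proteoglycan linked to ADAMTS5 activation in mouse cartilage, was at 17.8, 30.7, 46.8, 21.3 and 11.4 TPM in COPD replicates 1 to 5, against 11.5, 8.30, 12.4, 10.4 and 13.4 TPM in control replicates 1 to 5. COPD replicates 1 to 4 were above every control, and COPD replicate 5 was within their range. The log2 fold change was 1.39 ± 0.32 (adjusted p = 0.0973), and 1.59 ± 0.25 (adjusted p = 0.0102) without COPD replicate 5. Furin, the convertase that trims ADAMTS precursors, was at 0.32 ± 0.11 (adjusted p = 0.219), and the urokinase receptor gene Plaur at 0.63 ± 0.24 (adjusted p = 0.268). The fourth TIMP gene, Timp4, was at 25.9 ± 9.63 TPM in COPD and 23.1 ± 6.95 TPM in control (log2 fold change 0.34 ± 0.26, adjusted p = 0.583), and Lrp1, the endocytic receptor that clears ADAMTS4 and ADAMTS5, had a log2 fold change of -0.01 ± 0.14 (adjusted p = 0.979).

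**Figure D5:**
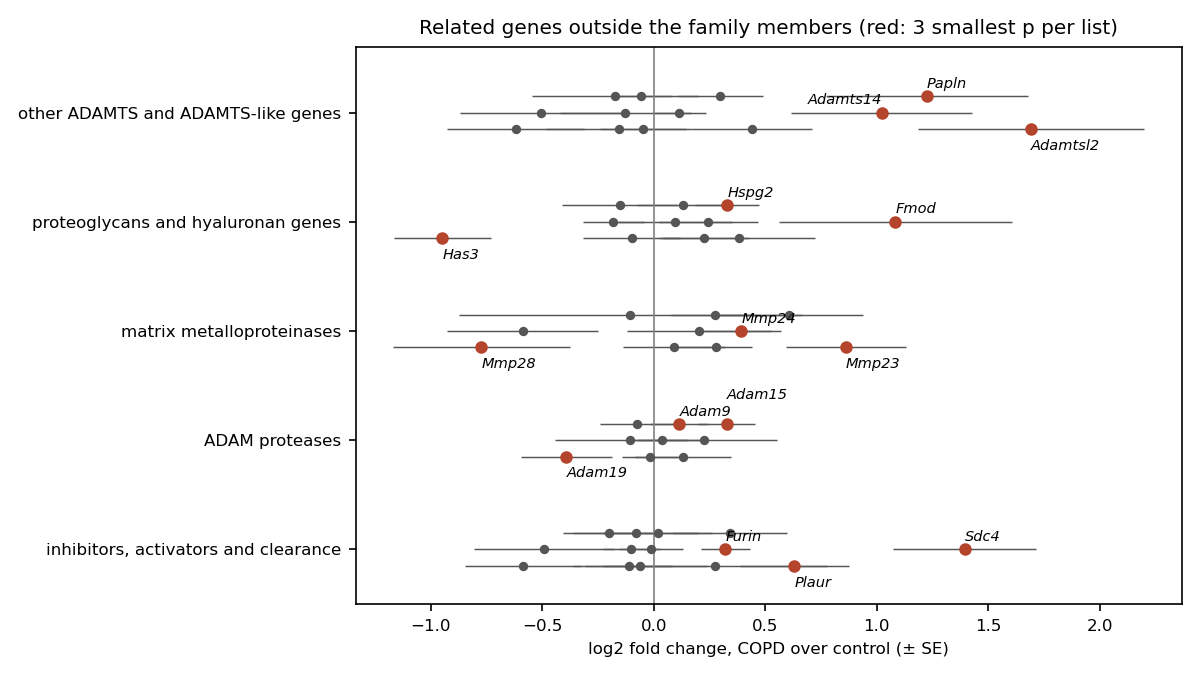
Log2 fold change of COPD over control (horizontal axis, ± SE, edgeR over all 10 libraries) for the 57 tested genes of 5 related lists, 1 point per gene; the 3 genes with the smallest p of each list are red and named. Most points lie near 0, Adamtsl2 at 1.69 and Sdc4 at 1.39 lie farthest to the right, and Has3 at -0.95 lies farthest to the left.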

How the data were processed

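Expected counts (estimates, 30.7% of them not whole) and TPM were deposited by the authors for the same 18025 genes. Build mm9, RSEM 1.2.12, Bowtie2 2.2.5, HISAT2 2.0.4 and DESeq2 1.4.5 are listed, without roles, in the submitters' processing notes. Expected counts were rounded, genes kept by filterByExpr and libraries scaled by TMM, and edgeR 4.0.16 in R 4.3.3 (quasi-likelihood fit and F test) compared the groups, with Benjamini-Hochberg adjustment over 12697 genes. The standard error is the fold change divided by the square root of F. Replicate p-values measure only the spread between these samples. Before the TMM factor is applied, library totals make 1 CPM stand for 14.1 to 17.3 counts. DESeq2 1.42.0, limma 3.58.1 on log2(TPM + 1) and log2(TPM + 0.1), other scalings and filters, a block, a Y-linked term (3 genes together at 1 CPM or more) and left-out libraries were tried. The procedure was tested on simulated data.

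The members and lists were chosen with earlier results of these data known. The text names all 10 members, the 3 genes with the smallest p in each of the 5 lists where none was called, and the 4 nearest profiles of Adamts9, Adamts4 and Timp1; other names are stated as such, and some results that the rule covers are not reported here. Exon overlaps come from GENCODE M21 (GRCm38), and start-site sequences from RefSeq. Libraries of a group all differed beyond counting noise (chi-square over degrees of freedom, 17.6 to 96.4).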

Additional observations from a re-analysis of the deposited data

Results flagged for a closer look

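Within groups of 5 libraries, 42 sets of values (10 genes and 11 marker sums in each group) were searched for a library whose gap to its nearest neighbour exceeded 0.71 of the range, and 7 were found. Chance flags about 1 set in 20 if sets are independent and normally spread. These sets share the same libraries, so the number found cannot be read against that rate. Adamts20 stood out at 3.90 TPM in COPD replicate 5 and at 6.40 TPM in control replicate 4, each far above the other libraries of its group. The neutrophil marker sum was 167.7 TPM in COPD replicate 5 and 620.4 TPM in control replicate 1, and the adipocyte sum was 34.4 TPM in COPD replicate 5, each far above its group. The cardiac marker sum was 3.62 TPM in COPD replicate 3, above the other COPD libraries, and the fibro-adipogenic sum was 224.0 TPM in control replicate 5, below the other controls.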

How the results depend on the processing

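edgeR called 8 genes over all 10 libraries. The count was 414 by DESeq2, 17 without the low-count filter, 216 with the term for Y-linked counts (303 with that term and no filter), 74 by limma on log2(TPM + 1), 76 on that scale without a filter, 2 on log2(TPM + 0.1), and between 0 and 410 when a library was left out. It was 410 without COPD replicate 5 (360 with no filter), 0 without COPD replicate 2 (1510 at an unadjusted p under 0.05), 5 without COPD replicate 4, and 3, 3, 1, 1 and 2 without control replicates 1 to 5. Of the 10 family genes, 0 were called over all libraries, 2 by DESeq2, 1 without the low-count filter, 1 with the Y-linked term (2 with the term and no filter), and 0 to 2 with a library left out. Of the related genes, 0 were called, 3 by DESeq2, 1 with the Y-linked term (2 with the term and no filter), 1 by limma on log2(TPM + 1) without a filter, and 0 to 3 with a library left out. The cause of these changes was not tested.

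The median of all genes was -0.18 on log2(TPM + 1), -0.21 on log2(TPM + 0.1) and -0.17 with library size alone; Timp2, Adamts5 and Adamts8 changed sign on the TPM scales, where Timp2 reached -0.02. Adamts8 and Timp3 also changed sign when some libraries were left out, Adamts8 with the replicate block, and Adamts8 and Adamts5 with the Y-linked term. Adamts9 stayed between 1.13 and 2.62 and Adamts4 between 0.53 and 3.92, each lowest on log2(TPM + 1), which understates low genes. Of 278 fold changes of family genes under alternatives, 267 moved by less than 1 SD between libraries and 11 by more. Fits without a filter combined with a left-out library or the Y-linked term were added after the data were seen. Same-numbered COPD and control samples did not deviate together (correlations -0.14 to 0.04). Such values cannot show that the samples were unpaired, since a small shared effect would not raise them. With a replicate block edgeR called 7 genes, 0 of them among the 10 family genes. The order of levels by median TPM kept 6 genes in the same place in both groups.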

Other observations

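Profiles of the remaining genes were compared after the data were seen, by the same root mean square difference on the log2 scale after centring on group means. Among the nearest to Timp3 were the pericyte marker Rgs5 at 0.10, the smooth muscle gene Cald1 at 0.11 and Picalm at 0.11, where the scatter of Timp3 itself was 0.29. Nearest to Adamts8 were Casq2, the slow-fibre and cardiac calsequestrin, at 0.59, the lymphatic chemokine gene Ccl21a at 0.68, the macrophage marker Mrc1 at 0.70 and Ankrd1 at 0.73, where the scatter of Adamts8 was 1.25. Nearest to Adamts20 were the cold-inducible gene Rbm3 at 0.35, Arpp21 at 0.36, Tubb6 at 0.37 and Dpy19l3 at 0.37, with a scatter of 0.73. Adamts8 and its chromosomal neighbour Adamts15 differed by 1.31. These are descriptions over 10 libraries and not evidence of shared control.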
